A study of Homo sapiens with 9 samples.

Results

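Hep3B is an established human hepatocellular carcinoma line, and 9 genes at the end of its glycolytic pathway are described here. They encode the pyruvate kinases PKM and PKLR and the lactate dehydrogenases LDHA, LDHB and LDHD. The others are the lactate transporters SLC16A1 and SLC16A3, SLC16A4 of the same family, and basigin (BSG), the membrane partner of SLC16A1 and SLC16A3. The members were taken by gene symbol, all 9 were found among the 60683 genes of the count table, and 8 of them were among the 22672 genes tested. RNA was sequenced from 9 libraries in 3 groups of 3 replicates, all collected after 24 hours. The groups were cells given DMSO vehicle at 20% O2, cells given vehicle at 1% O2, and cells given compound 32-134D at 1% O2, a compound developed as an inhibitor of hypoxia-inducible factors (HIFs). A single concentration of 32-134D was used, and no library came from cells given 32-134D at 20% O2. The replicates are given as biological replicates of a single line, so p-values measure the spread between cultures and not between tumors. All 3 comparisons share groups with each other, and the values below are given for each one on its own.

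Pyruvate kinase makes pyruvate and ATP from phosphoenolpyruvate, and lactate dehydrogenase can then reduce pyruvate to lactate, which regenerates the NAD+ that glycolysis needs when respiration is limited by oxygen. Lactate leaves the cell with a proton through monocarboxylate transporters, whose placement in the plasma membrane depends on basigin. In the liver the usual direction is reversed, since hepatocytes take up lactate for glucose synthesis and use the liver form of pyruvate kinase, while many liver cancers express the PKM and LDHA genes. HIFs bind DNA at hypoxia response elements, whose core is written ACGTG or GCGTG.

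The opposing behavior of LDHA and PKLR and the rise of SLC16A3 at 1% O2 made the bases just before their start sites of interest, and these are shown first. Of the 9 members, 7 had at least 1 window in the RefSeq promoter table for GRCh38.p14, and these had 14 windows in all, of which 4 held ACGTG. Shown is the window with ACGTG of each of these 3 genes, chosen because it held the motif. PKM also rose at 1% O2, but its single window held neither ACGTG nor GCGTG and is not shown. The BSG window that held ACGTG is not shown either. In each window the 250 bases before the start site were searched for ACGTG and GCGTG on both strands. Capitals mark every match. The palindrome CACGTG holds ACGTG on both strands and was counted as 1 place.

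LDHA, chr11:18394313-18394562, plus strand: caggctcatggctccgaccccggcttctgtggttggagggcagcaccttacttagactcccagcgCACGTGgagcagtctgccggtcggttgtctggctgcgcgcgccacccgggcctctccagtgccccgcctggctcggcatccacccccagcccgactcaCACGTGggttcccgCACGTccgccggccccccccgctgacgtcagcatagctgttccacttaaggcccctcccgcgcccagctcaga

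SLC16A3, chr17:82228792-82229041, plus strand: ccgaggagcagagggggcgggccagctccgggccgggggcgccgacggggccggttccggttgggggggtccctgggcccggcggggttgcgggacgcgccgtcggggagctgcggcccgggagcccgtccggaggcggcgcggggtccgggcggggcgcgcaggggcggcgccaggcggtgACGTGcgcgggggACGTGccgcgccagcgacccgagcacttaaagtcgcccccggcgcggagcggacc

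PKLR, chr1:155301439-155301688, minus strand: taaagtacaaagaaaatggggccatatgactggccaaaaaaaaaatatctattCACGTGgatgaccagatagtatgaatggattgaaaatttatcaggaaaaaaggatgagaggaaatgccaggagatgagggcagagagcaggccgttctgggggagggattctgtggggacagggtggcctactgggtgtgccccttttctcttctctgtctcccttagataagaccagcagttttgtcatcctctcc

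The LDHA window held ACGTG at 3 separate places, with first bases at -185, -87 and -73 relative to the start site. The SLC16A3 window held it at 2 places, at -68 and -55, and the PKLR window at 1 place, at -197. The other window of LDHA, the other window of PKLR and the other 4 windows of SLC16A3 did not hold ACGTG. The 2 windows of PKLR lie before different start sites. Which start site of each gene was in use in these cells was not tested. Of 35116 windows of the same length in the table, 18.5% held ACGTG at least once, 2.61% at 2 or more separate places and 0.350% at 3 or more. GCGTG was in 32.2% of the windows, among them 2 further windows of SLC16A3 and the other window of LDHA, but not the other window of PKLR. A BSG window held ACGTG at 1 place and GCGTG at 4 places, whereas the single windows of PKM, LDHB and SLC16A4 held neither. A match is a description of these letters and not a binding site.

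Total counts ranged from 6013980 to 40549699 per library. The hepatocyte and hepatoma markers ALB, AFP, APOA1, APOB, TTR, SERPINA1, FGB and HNF4A were present in every library, and the blood marker PTPRC and the endothelial marker CDH5 had at most 4 counts in any group. The endothelial marker PECAM1 had at most 1.28 CPM (the count scaled to a common library size by the TMM method), and the fibroblast markers COL1A1, COL1A2 and PDGFRB had 2.73 to 10.4, 0.311 to 1.70 and 9.44 to 29.3 CPM. Replicate 3 of 32-134D stood apart. Of 13911 genes compared, 576 differed more than 2-fold in it from the other replicates of its group, against 28 to 191 genes in each of the other 8 libraries. In that library, 7 of the 8 hepatocyte markers were below both other 32-134D replicates and 1 was above. Values of the 32-134D group are therefore also given without it where it matters.

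Levels below are given as CPM, and changes were tested with edgeR's quasi-likelihood test, adjusted by the Benjamini-Hochberg method over all genes tested. A gene was called at an adjusted p (FDR) below 0.05 with a fold change above 1.5. Fewer cells and less RNA per cell cannot be told apart in such libraries. At 1% O2, 3 members were called higher in vehicle-treated cells (LDHA, PKM and SLC16A3), where 19.5% of all genes tested were called higher. A further 2 were called lower (PKLR and LDHD), where 20.3% of all genes were. With 32-134D at 1% O2, 3 members were called lower than with vehicle (LDHA, PKM and SLC16A3), against 13.7% of all genes, and 1 was called higher (PKLR), against 16.2%. Against vehicle at 20% O2, 32-134D left 1 member called higher (LDHA), where 3.0% of all genes were called higher, and no member called lower, where 0.516% were. In this last comparison the edgeR p before adjustment was below 0.05 for 3 members in addition to LDHA, namely SLC16A3 and SLC16A1, which were higher, and PKLR, which was lower, and DESeq2 also called 1 member higher and 0 lower.

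**Figure D1:**
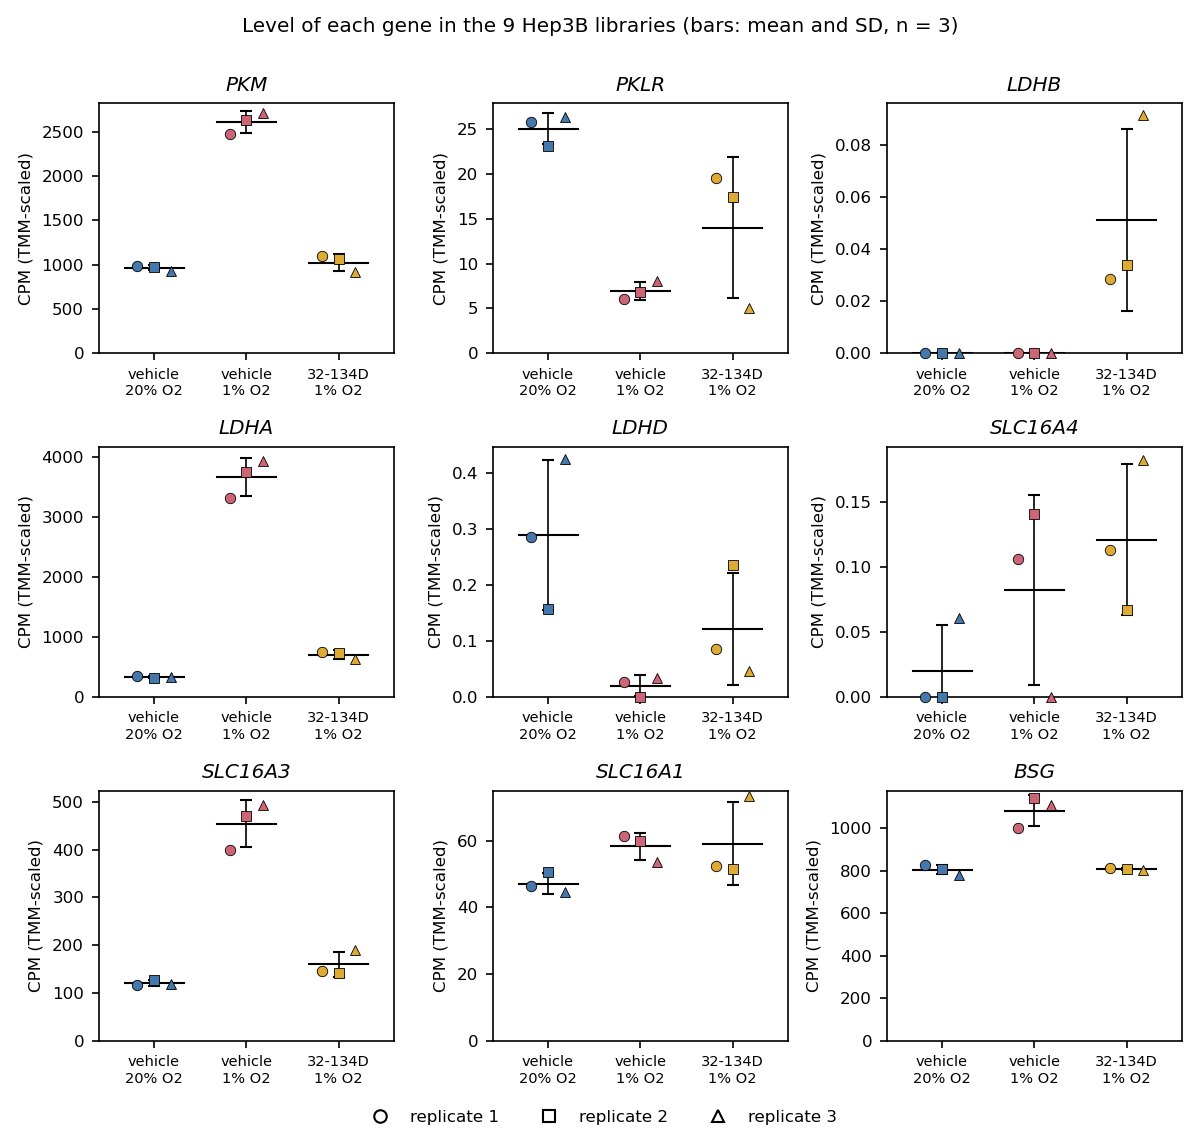
Level of each of the 9 genes as CPM on a linear axis (vertical) in vehicle 20% O2, vehicle 1% O2 and 32-134D 1% O2 (horizontal); each point is 1 library, and bars give the mean and SD of 3. LDHA, PKM and SLC16A3 are highest at 1% O2 with vehicle, and LDHB, LDHD and SLC16A4 stay below 0.5 CPM. The mean of PKLR is lowest at 1% O2 with vehicle, but its lowest single library is replicate 3 of 32-134D at 4.98 CPM.

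LDHA encodes the muscle-type subunit, which favors the conversion of pyruvate to lactate. It lies at chr11:18394388-18408425 on the plus strand of GRCh38. Its CPM was 353, 321 and 328 in replicates 1, 2 and 3 of vehicle at 20% O2. It was 3324, 3762 and 3938 with vehicle at 1% O2, and 757, 738 and 626 with 32-134D at 1% O2. The 3 groups did not overlap. LDHA rose 11.0-fold at 1% O2 (log2 fold change 3.46, SE 0.10, edgeR FDR 2.84e-12). With 32-134D it was 5.20-fold lower than with vehicle at 1% O2 (log2 fold change -2.38, SE 0.09, edgeR FDR 2.75e-10), but it remained 2.11-fold above vehicle at 20% O2 (log2 fold change 1.08, SE 0.09, edgeR FDR 2.42e-06). Without replicate 3 of 32-134D these last values were -2.30 and 1.16 on the log2 scale. By its count, LDHA ranked 377 to 438 among all genes with vehicle at 20% O2, 11 in each library with vehicle at 1% O2, and 98 to 137 with 32-134D. Its share of all counts reached 0.309% to 0.356% with vehicle at 1% O2. The 6 annotated LDHA pseudogenes held together 0.337% to 0.587% as many counts as LDHA, so reads assigned to these copies were few in each group.

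LDHB, the heart-type subunit that forms tetramers with LDHA, was all but undetected. It lies at chr12:21635342-21757857 on the minus strand. No read was counted in any of the 6 vehicle libraries, and 1, 1 and 2 reads were counted in replicates 1, 2 and 3 of 32-134D. It was not tested, since its 4 counts in all fell below the minimum of 10. A count of 0 allows up to 3 counts in a library, and in the smallest library these correspond to 0.471 CPM. By these counts LDHA made up all of the LDHA and LDHB level per kilobase of exon in the vehicle libraries, and 99.98% ± 0.0126 (SD, n = 3) with 32-134D. The 3 annotated LDHB pseudogenes had at most 4 counts in a library. In GENCODE 29, the gene AC010197.2 lies across LDHB on the same strand and holds 63.4% to 94.6% of the bases of the 5 protein-coding LDHB transcripts, and 1 read in all was counted for it. Counting by gene may leave out reads that fall on bases of more than 1 gene, so the counts of LDHB can rest on as few as 40 to 545 bases per transcript and may understate its level. Whether the annotation used for the counts holds the same overlap was not tested.

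LDHD, a mitochondrial enzyme that oxidizes D-lactate, was near the limit of detection. It lies at chr16:75111860-75116771 on the minus strand. Its counts were 4, 1 and 14 with vehicle at 20% O2, 1, 0 and 1 with vehicle at 1% O2, and 3, 7 and 1 with 32-134D. The sum fell from 19 of 50478487 counts at 20% O2 to 2 of 96140225 with vehicle at 1% O2, a scaled ratio of 15.7 with an exact 95% interval from 3.79 to 139 that covers counting error only. In edgeR, LDHD was called lower at 1% O2 (FDR 0.00247), although every library of the lower group had at most 1 count. The difference between 32-134D and vehicle at 1% O2 missed the threshold (edgeR FDR 0.0636), and it passed when replicate 3 of 32-134D was left out (edgeR FDR 0.0363) or when libraries were scaled by total count (edgeR FDR 0.0473).

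PKM, whose splice forms M1 and M2 are the pyruvate kinases of muscle and of proliferating cells, changed in the same directions as LDHA. It lies at chr15:72199029-72231822 on the minus strand, and counts per gene do not separate its splice forms. Its CPM was 982, 976 and 930 with vehicle at 20% O2, 2475, 2637 and 2717 with vehicle at 1% O2, and 1092, 1061 and 912 with 32-134D. The vehicle groups did not overlap, and the 32-134D libraries spanned the range of vehicle at 20% O2. PKM rose 2.71-fold at 1% O2 (log2 fold change 1.44, SE 0.08, edgeR FDR 1.68e-09) and was 2.55-fold lower with 32-134D than with vehicle at 1% O2 (log2 fold change -1.35, SE 0.08, edgeR FDR 9.20e-09). Against vehicle at 20% O2 the log2 fold change with 32-134D was 0.09 (SE 0.08, edgeR FDR 0.559). Without replicate 3 of 32-134D the comparison with vehicle at 1% O2 gave -1.28 on the log2 scale.

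Of the 4 listed factors known to govern the choice between the PKM splice forms, 1 was called higher and 1 lower at 1% O2. Over all genes tested, 19.5% were called higher and 20.3% lower. PTBP1, which represses the M1 exon, had 702 ± 39.9 CPM with vehicle at 20% O2, 1541 ± 68.1 with vehicle at 1% O2 and 877 ± 15.8 with 32-134D (SD, n = 3). It was called higher at 1% O2 (log2 fold change 1.14, SE 0.07, edgeR FDR 4.49e-09) and lower with 32-134D (log2 fold change -0.81, SE 0.07, edgeR FDR 2.96e-07). HNRNPA2B1, another repressor of that exon, fell by 0.84 on the log2 scale at 1% O2 and was 0.64 higher with 32-134D than with vehicle. HNRNPA1 differed by 0.37 and -0.27 and SRSF3 by -0.06 and 0.01 in the same comparisons, and neither was called.

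PKLR, the pyruvate kinase of liver and red cells, moved the other way. It lies at chr1:155289293-155301438 on the minus strand. Its CPM was 25.8, 23.1 and 26.3 with vehicle at 20% O2, 5.99, 6.79 and 8.02 with vehicle at 1% O2, and 19.6, 17.4 and 4.98 with 32-134D. The vehicle groups did not overlap, and replicate 3 of 32-134D, from 109 counts, lay below every vehicle library at 1% O2. PKLR was 3.65-fold lower at 1% O2 (log2 fold change -1.87, SE 0.33, edgeR FDR 0.000202). With 32-134D it was called higher than with vehicle at 1% O2 (log2 fold change 1.04, SE 0.32, edgeR FDR 0.0159), and against vehicle at 20% O2 it was not called (log2 fold change -0.83, SE 0.31, edgeR FDR 0.114). Without replicate 3 the value against vehicle at 1% O2 was 1.42 (edgeR FDR 1.80e-11), and the one against vehicle at 20% O2 was -0.46. The call against vehicle at 1% O2 was lost in DESeq2 (adjusted p 0.0513), and in edgeR without replicate 1 or replicate 2 of 32-134D (FDR 0.0608 and 0.0543) or without replicate 1 of vehicle at 1% O2 (FDR 0.0778).

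The replicate of 32-134D that was low in PKLR was also low in hepatocyte markers. TTR, which encodes transthyretin, had 37.9, 34.5 and 9.79 CPM in replicates 1, 2 and 3, and the fibrinogen gene FGB had 33.5, 33.1 and 6.86 CPM. The exception among the 8 was HNF4A, a hepatocyte transcription factor, at 349, 353 and 380 CPM. The summed level of the 8 markers was 16546, 16305 and 11159 CPM in these libraries, 11617 to 14461 CPM with vehicle at 1% O2, and 16646 to 17962 CPM with vehicle at 20% O2. The lower sum with vehicle at 1% O2 rested on APOB, at 377 to 423 CPM there against 3256 to 5256 CPM at 20% O2. The other 7 markers summed to 12661, 12336 and 8451 CPM in replicates 1, 2 and 3 of 32-134D, to 11193 to 14045 CPM with vehicle at 1% O2 and to 12706 to 13389 CPM with vehicle at 20% O2, so the vehicle groups overlapped. ALB, at 8287 to 10208 CPM with vehicle at 1% O2, made up most of this last sum. TTR and FGB were not lower with vehicle at 1% O2 (47.4 to 56.9 and 47.4 to 51.0 CPM) than at 20% O2 (44.4 to 47.9 and 29.05 to 37.07 CPM). AFP was lower there without overlap, at 115 to 156 CPM against 212 to 239 CPM at 20% O2. ALB, APOA1, SERPINA1 and HNF4A overlapped between the vehicle groups. The part of the low markers of replicate 3 of 32-134D in its PKLR value was not tested.

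**Figure D2:**
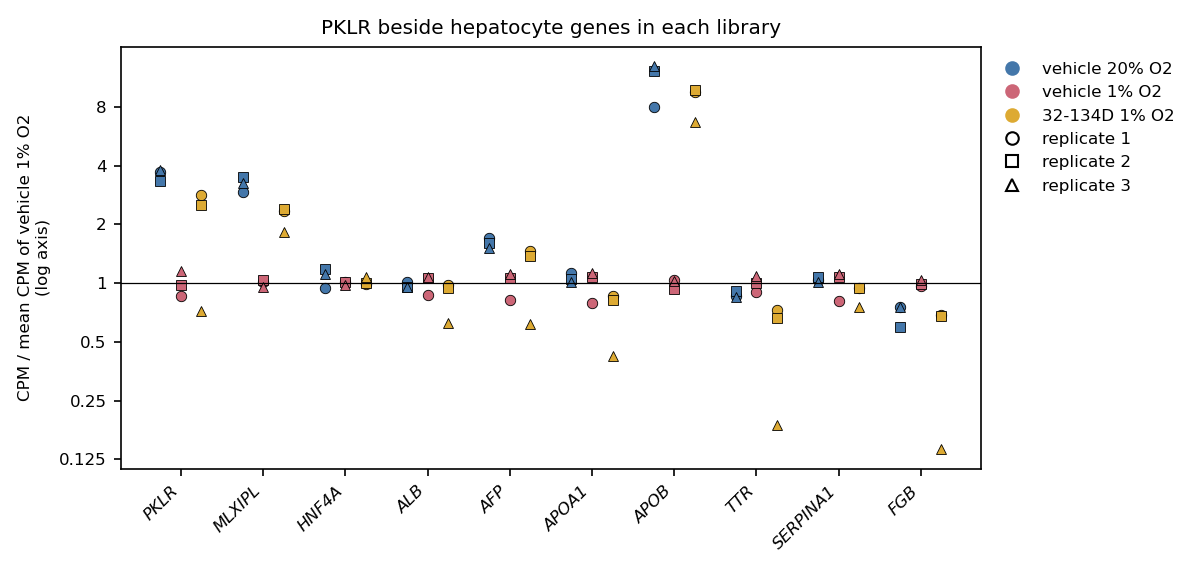
CPM of PKLR, of transcription factors known to act on it and of hepatocyte markers in each library, divided by the mean of vehicle at 1% O2, on a log axis; colors give the group and symbols the replicate. PKLR in replicate 3 of 32-134D lies below the vehicle libraries at 1% O2, and TTR and FGB are lowest in that same library.

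Of the 3 listed factors known to act on PKLR, 1 was called lower at 1% O2 and the same 1 higher with 32-134D. Over all genes tested, 20.3% were called lower at 1% O2 and 16.2% higher with 32-134D. MLXIPL, which encodes the glucose-responsive factor ChREBP, had 90.4 ± 7.66 CPM with vehicle at 20% O2, 27.9 ± 1.17 with vehicle at 1% O2 and 61.2 ± 8.97 with 32-134D (SD, n = 3). Its log2 fold changes were -1.69 at 1% O2 (SE 0.11, edgeR FDR 5.70e-09) and 1.14 with 32-134D against vehicle at 1% O2 (SE 0.10, edgeR FDR 5.91e-07). Unlike PKLR, MLXIPL in replicate 3 of 32-134D (50.9 CPM) stayed above the vehicle libraries at 1% O2 (26.6 to 28.9 CPM). HNF4A and FOXA1 were not called in either comparison, with log2 fold changes between -0.53 and 0.32.

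PKLR shares 17.6% of its exon bases with HCN3 on the opposite strand, and the strand setting of the counting is not given in the sources used here. HCN3 had 8.45 ± 2.12, 11.7 ± 0.267 and 8.45 ± 0.659 CPM in the 3 groups in the same order (SD, n = 3), and its log2 fold changes of 0.46 and -0.47 had the opposite signs to those of PKLR.

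SLC16A3 encodes MCT4, the transporter that exports lactate from glycolytic cells. It lies at chr17:82228397-82261129 on the plus strand. Its CPM was 116, 127 and 118 with vehicle at 20% O2, 398, 471 and 492 with vehicle at 1% O2, and 146, 143 and 191 with 32-134D. The 3 groups did not overlap. SLC16A3 rose 3.77-fold at 1% O2 (log2 fold change 1.92, SE 0.11, edgeR FDR 3.00e-09) and was 2.84-fold lower with 32-134D than with vehicle at 1% O2 (log2 fold change -1.51, SE 0.11, edgeR FDR 7.03e-08). The difference between 32-134D and vehicle at 20% O2 passed the FDR but not the fold threshold (log2 fold change 0.41, SE 0.11, edgeR FDR 0.0294). Without replicate 3 of 32-134D, the highest of its group, these last values were -1.65 and 0.26. CSNK1D covers 5.36% of the SLC16A3 exon bases on the opposite strand and was not called in any of the 3 comparisons.

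SLC16A1 encodes MCT1, a widely expressed transporter that carries lactate in both directions. It lies at chr1:112911847-112957013 on the minus strand. Its CPM was 46.4, 50.6 and 44.5 with vehicle at 20% O2, 61.4, 59.9 and 53.6 with vehicle at 1% O2, and 52.3, 51.5 and 73.5 with 32-134D. The vehicle groups did not overlap, and the 32-134D libraries fell on either side of vehicle at 1% O2. The difference at 1% O2 was small and was not called (log2 fold change 0.31, SE 0.12, edgeR FDR 0.0422), and it was 0.10 when libraries were scaled by total count. With 32-134D against vehicle at 1% O2 the log2 fold change was 0.02 (SE 0.12, edgeR FDR 0.927), and it was -0.17 without replicate 3. The antisense gene SLC16A1-AS1 held 3.73% to 8.35% as many counts as SLC16A1.

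SLC16A4 encodes MCT5, an orphan member of the same family at chr1:110362848-110391082 on the minus strand. Its counts were 0, 0 and 2 with vehicle at 20% O2, 4, 3 and 0 with vehicle at 1% O2, and 4, 2 and 4 with 32-134D. At this depth no difference was detectable, with edgeR FDRs of 0.488, 0.662 and 0.443 in the 3 comparisons.

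BSG, the chaperone of MCT1 and MCT4, changed little. It lies at chr19:571277-583493 on the plus strand. Its CPM was 824, 808 and 781 with vehicle at 20% O2, 1000.1, 1141 and 1107 with vehicle at 1% O2, and 812, 809.8 and 801 with 32-134D. The vehicle groups did not overlap, and the 32-134D libraries lay within the range of vehicle at 20% O2. At 1% O2 the difference passed the FDR but not the fold threshold (log2 fold change 0.43, SE 0.07, edgeR FDR 8.13e-05), as did that between 32-134D and vehicle at 1% O2 (log2 fold change -0.42, SE 0.07, edgeR FDR 0.000124). Against vehicle at 20% O2 the log2 fold change with 32-134D was 0.01 (SE 0.07, edgeR FDR 0.981).

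**Figure D3:**
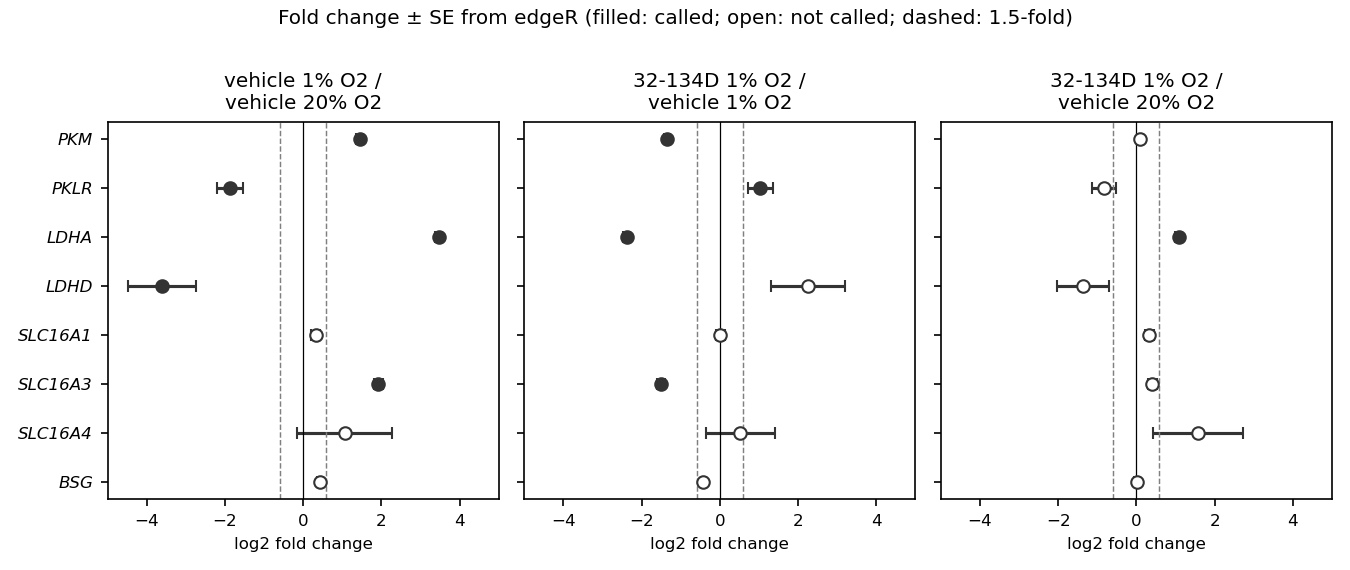
Log2 fold change with its SE (horizontal) of the 8 tested genes (vertical) in the 3 comparisons from 1 edgeR fit; filled points were called, open points were not, and dashed lines mark a 1.5-fold change. LDHA, PKM and SLC16A3 stand on opposite sides of 0 in the first and second comparison, and LDHA alone is filled in the last.

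Levels of different genes were compared as CPM per kilobase of exon. With vehicle at 20% O2 the order was BSG (212 ± 5.71), PKM (112 ± 3.34), LDHA (53.8 ± 2.68), SLC16A3 (13.4 ± 0.657), SLC16A1 (8.88 ± 0.584) and PKLR (7.92 ± 0.552; all SD, n = 3). With vehicle at 1% O2 the order was LDHA (592 ± 51.0), PKM (304 ± 14.4), BSG (285 ± 19.4), SLC16A3 (50.5 ± 5.49), SLC16A1 (11.0 ± 0.785) and PKLR (2.19 ± 0.323), and the libraries of PKM and BSG overlapped. LDHA thus moved from the third place of these 6 genes to the first. With 32-134D the order of vehicle at 20% O2 returned, with BSG at 213 ± 1.51, PKM at 119 ± 11.2, LDHA at 114 ± 11.4, SLC16A3 at 17.8 ± 2.98, SLC16A1 at 11.1 ± 2.35 and PKLR at 4.41 ± 2.48, although PKM and LDHA overlapped. LDHB, LDHD and SLC16A4 were below 0.13 in each group. These levels depend on the length used. By the longest transcript in place of all exon bases, the order of the 6 genes was the same in each group, but PKM stood closer to BSG with vehicle at 20% O2 (319 ± 9.50 against 376 ± 10.1) and no longer overlapped with it with vehicle at 1% O2 (865 ± 40.8 against 506 ± 34.3; SD, n = 3).

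Ratios within a library do not depend on its scaling. The ratio of LDHA to PKM per kilobase was 0.479 ± 0.0220 with vehicle at 20% O2, 1.94 ± 0.0775 with vehicle at 1% O2 and 0.955 ± 0.00683 with 32-134D (SD, n = 3). With 32-134D this ratio of RNA levels thus stayed above that at 20% O2 in all 3 replicates. The share of SLC16A3 in the sum of SLC16A3 and SLC16A1 was 60.2% ± 0.727 at 20% O2, 82.0% ± 2.59 with vehicle at 1% O2 and 61.6% ± 0.951 with 32-134D (SD, n = 3). Vehicle at 1% O2 did not overlap with either of the other groups, whereas 32-134D and vehicle at 20% O2 did. The share of PKLR in the sum of PKLR and PKM was 6.59% ± 0.554, 0.712% ± 0.0729 and 3.44% ± 1.73 in the same order (SD, n = 3), and the 3 groups did not overlap. In replicate 3 of 32-134D this share was 1.46%, although PKLR itself (4.98 CPM) lay below every vehicle library at 1% O2 (5.99 to 8.02 CPM). PKM in that library was lower as well, at 912 CPM against 2475 to 2717 CPM with vehicle at 1% O2. In 2-sided exact permutation tests of 3 libraries against 3, which cannot give a p below 0.1, these share differences reached 0.1 (0.129 adjusted over 9 tests), except that of SLC16A3 between 32-134D and vehicle at 20% O2 (0.2, adjusted 0.225). BSG stood at 9.53 ± 0.517 times the summed level of SLC16A1 and SLC16A3 with vehicle at 20% O2, at 4.64 ± 0.126 times with vehicle at 1% O2 and at 7.52 ± 1.30 times with 32-134D (SD, n = 3).

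**Figure D4:**
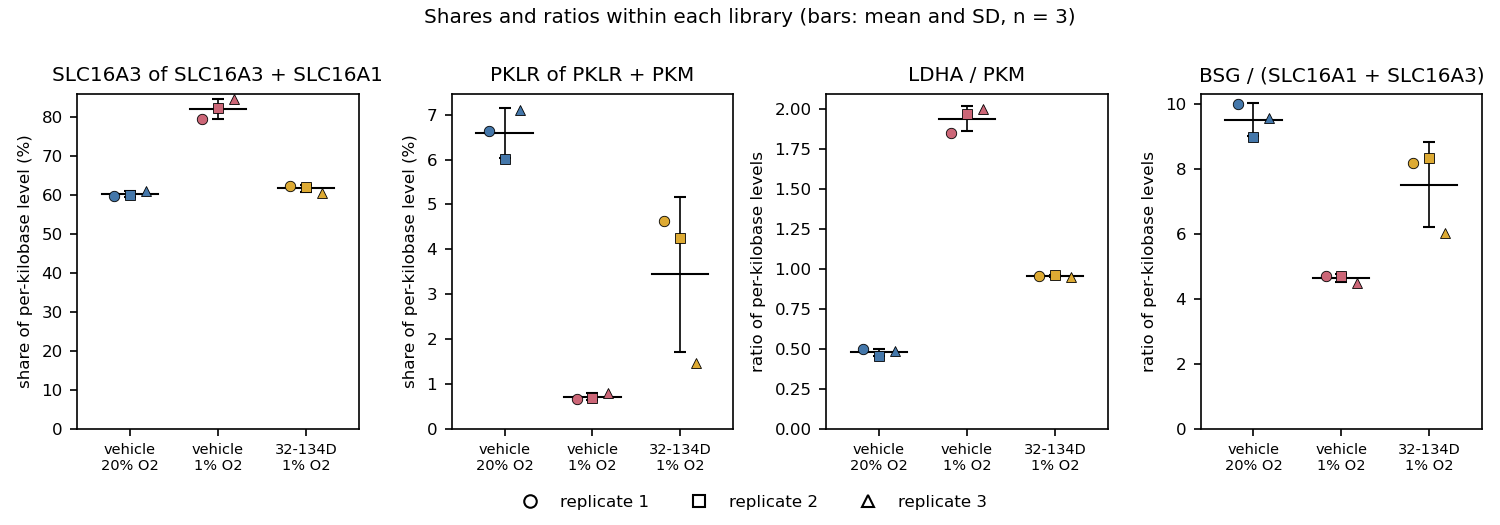
Shares (percent) and ratios of levels per kilobase of exon in each library of the 3 groups; points are libraries, and bars give the mean and SD of 3. The SLC16A3 share is 82.0% with vehicle at 1% O2 against 60.2% and 61.6% in the other groups, while LDHA over PKM with 32-134D lies between both vehicle groups.

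The genes upstream of pyruvate and around lactate were read from 5 lists of 54 genes, of which 47 were tested. In the 19-gene list of glycolysis from glucose to phosphoenolpyruvate, 17 were tested, and 12 were called higher and 2 lower at 1% O2, with a median log2 fold change of 1.94 against 0.00 over all genes tested, of which 19.5% were called higher and 20.3% lower. With 32-134D against vehicle at 1% O2, 11 were called lower and 2 higher (median -1.68 against -0.01). Over all genes tested, 13.7% were called lower and 16.2% higher. The enolase gene ENO2 rose from 20.7 ± 0.690 to 339 ± 8.56 CPM at 1% O2 and had 49.2 ± 5.10 CPM with 32-134D (SD, n = 3). ALDOA and ALDOC, which encode aldolases, and PGK1, which encodes phosphoglycerate kinase, were called higher by 3.03, 2.75 and 2.74 on the log2 scale and lower with 32-134D by -2.09, -2.62 and -2.23. In the comparison with vehicle at 20% O2, 3.0% of all genes tested were called higher with 32-134D and 0.516% lower. There, 3 genes of the list remained called higher, as LDHA did, among them ENO2 (log2 fold change 1.26) and ALDOA (0.94). HK2, which encodes a hexokinase, was the other (0.74), and PGAM2, which encodes a phosphoglycerate mutase, was called lower (-0.77, edgeR FDR 0.0354). The PGAM2 call was lost without replicate 3 of 32-134D (-0.50), without any 1 of the vehicle replicates at 20% O2 (edgeR FDR 0.0683 to 0.133), after thinning and in the fit of the 2 groups alone. Against vehicle at 20% O2, PGK1 (0.51, edgeR FDR 0.000834), PGAM1 (0.45, edgeR FDR 0.00944) and ENO1 (0.31, edgeR FDR 0.0186) were also higher. ENO3 was lower (-0.35, edgeR FDR 0.0157). All of these passed the FDR and missed only the fold threshold. With 32-134D against vehicle at 1% O2, the 2 higher calls were PGAM2 and PFKM, which encodes a phosphofructokinase. At the same fold threshold, that PGAM2 call was lost in 3 alternatives. The PFKM call was lost without replicate 3 of 32-134D (0.57), and its lower call at 1% O2 was lost after thinning (-0.52).

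Of the 14 genes of mitochondrial pyruvate entry, 5 were called higher and 2 lower at 1% O2 (median -0.04), and with 32-134D against vehicle 1 was called higher and 3 lower (median -0.08). Over all genes tested, 19.5% were called higher and 20.3% lower at 1% O2, and 16.2% higher and 13.7% lower with 32-134D, so most of these counts lie near the background. At the same fold threshold, the lower call of MPC1 at 1% O2 (edgeR FDR 0.0348) was lost in 5 alternatives, among them DESeq2. The higher calls of PDHX and PDP1 at 1% O2 were each lost in 2 alternatives. PDK1, whose kinase inactivates pyruvate dehydrogenase, had 6.55 ± 0.937 CPM with vehicle at 20% O2, 110.1 ± 4.16 with vehicle at 1% O2 and 22.9 ± 0.952 with 32-134D (SD, n = 3). It was the gene of this list called against vehicle at 20% O2 (log2 fold change 1.75, SE 0.10, edgeR FDR 1.15e-07), where 3.0% of all genes tested were called higher. PDK4 and PDK3 rose by smaller steps at 1% O2 (1.10 and 0.96) and were lower with 32-134D (-0.87 and -0.99). PC, which encodes the pyruvate carboxylase of gluconeogenesis, was called lower at 1% O2 (-0.80) and higher with 32-134D (0.81).

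Among the other lactate and pyruvate genes, 9 of 14 were tested, and 2 were called higher and 4 lower at 1% O2 (median -0.12), where the share of all genes was 19.5% and 20.3%. With 32-134D against vehicle, 4 were called higher and 2 lower (median 0.38), where it was 16.2% and 13.7%. The lower call of GLO1, which encodes a glyoxalase, was lost when libraries were scaled by total count (-0.57). SLC16A7, which encodes the high-affinity transporter MCT2, had 46.7 ± 4.29 CPM with vehicle at 20% O2, 9.10 ± 0.906 with vehicle at 1% O2 and 42.2 ± 4.19 with 32-134D (SD, n = 3), so it changed in the directions opposite to those of SLC16A3. Its log2 fold changes were -2.36 (SE 0.11, edgeR FDR 3.59e-10) and 2.21 (SE 0.11, edgeR FDR 2.15e-09). The sodium-coupled lactate transporter gene SLC5A12 was called lower at 1% O2 (-2.36) and higher with 32-134D (1.85). GPT, which encodes the cytosolic alanine aminotransferase, was likewise called lower and then higher (-2.25 and 1.47), whereas GPT2, which encodes the mitochondrial form, was called higher and then lower (1.66 and -0.91). With 32-134D against vehicle at 20% O2, GPT was called lower (-0.79, edgeR FDR 0.0497) and GPT2 higher (0.75, edgeR FDR 0.00744). Both calls were lost without replicate 3 of 32-134D, at -0.52 for GPT and 0.44 for GPT2. The GPT call was lost in 9 alternatives in all, among them leaving out any 1 of the vehicle replicates at 20% O2 (edgeR FDR 0.0923 to 0.184) or replicate 1 of 32-134D (edgeR FDR 0.0570). In edgeR, 0 of the 7 genes of the lists for PKM splicing and PKLR regulation were called in that comparison. Over all genes tested, 3.0% were called higher in it and 0.516% lower. However, MLXIPL (log2 fold change -0.56, edgeR FDR 0.00293) and PTBP1 (0.32, edgeR FDR 0.00785) passed the FDR and missed only the fold threshold. The edgeR p before adjustment was also below 0.05 for HNRNPA2B1 and FOXA1.

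**Figure D5:**
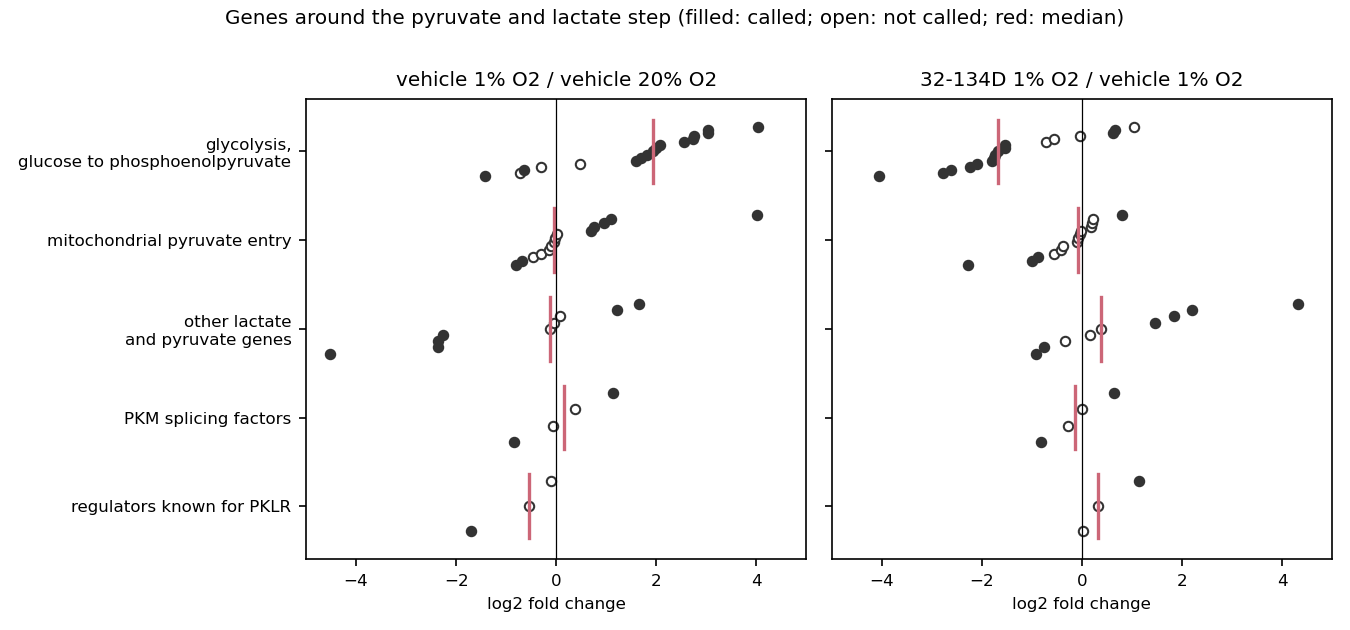
Log2 fold change (horizontal) of each tested gene in the 5 lists (vertical) in 2 comparisons; filled points were called, open points were not, and the red line is the list's median. The glycolysis genes have a median of 1.94 at 1% O2 with vehicle and of -1.68 with 32-134D against vehicle at 1% O2, whereas the medians of the other lists lie between -0.53 and 0.38.

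The genes whose levels were most like those of a member were found by Pearson's r of log2 CPM over the 9 libraries among 13911 genes. They are given as a description, since the 3 groups set most of the variation of LDHA, PKM, SLC16A3 and BSG. For LDHA they were P4HA1 (r = 0.9995), FAM210A (r = 0.9994) and EFNA1 (r = 0.9991). For PKM they were FUNDC2 (r = 0.9993), the glycolytic gene TPI1 (r = 0.9991) and SPAG4 (r = 0.9985). For SLC16A3 they were PPP1R11 (r = 0.9980), PPP4R3A (r = 0.9957) and PPP1R13L (r = 0.9949), and for BSG they were PSAP (r = 0.9943), YIPF3 (r = 0.9922) and C11orf68 (r = 0.9916). For PKLR they were OLFML3 (r = 0.9943) and the steroid metabolism genes AKR1D1 (r = 0.9938) and HSD17B2 (r = 0.9937). The closest to SLC16A1 were further off, namely POLR1E (r = 0.974), ARSI (r = 0.965) and CCPG1 (r = 0.961). PKLR and SLC16A1 also varied within the 32-134D group. PKLR had 19.6, 17.4 and 4.98 CPM in replicates 1, 2 and 3, and SLC16A1 had 52.3, 51.5 and 73.5 CPM. The part of replicate 3 in their rankings was not tested. LDHD and SLC16A4, with 32 and 19 counts in all, are too sparse for such a ranking to be read. An r over 0.95 was reached by 2310 genes with LDHA, 1439 with PKM and 1615 with SLC16A3, but by 242 with PKLR and 8 with SLC16A1.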

How the data were processed

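RNA was sequenced on the NovaSeq6000 platform from 9 cultures of Hep3B cells, grouped by the sample labels. The authors deposited raw counts per Ensembl gene (release 100), made, per the submitters' processing notes and the study's methods, with STAR and featureCounts. Versions and strand setting are not given in the sources used here, so reads of overlapping genes may be shared. Each library's column was matched by name.

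The test covered the 22672 genes whose sum of counts reached 10, and used edgeR 4.0.16 in R 4.3.3 (TMM scaling, quasi-likelihood test, 1 fit of 9 libraries without covariates). The thresholds for a call were an FDR (Benjamini-Hochberg) of 0.05 and a fold of 1.5. SEs were taken from the F statistics. Exon lengths, positions and overlaps came from GENCODE 29, which holds 22265 of the tested genes on the same assembly, and promoter windows from RefSeq. Correlations used log2 CPM with a prior count of 2. A floor of 3 counts was used for a count of 0, and intervals and floors cover counting error only. Depth was 6013980 to 40549699 counts per library. Replicate pairs differed by more than counting error (chi-square per degree of freedom 1.62 to 36.4), so none was treated as a repeat of the same sample. The highest values, 32.5 and 36.4, were those of the pairs with replicate 3 of 32-134D. All libraries were kept. The procedure was tested on simulated data.

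The members, lists and alternatives were chosen with earlier results of these data known. Pathway genes named are at most 4 per list and comparison, those with the largest absolute log2 fold change among called genes with a mean CPM of at least 1, plus every gene of lists of 5 or fewer. Genes whose calls were lost in an alternative at the same fold threshold were also named. A further gene first fixed for the PKLR list was left out of it and is not reported here. The 3 genes most like each member were named by correlation. HCN3, CSNK1D, SLC16A1-AS1 and the pseudogenes were named because they overlap or copy members. Alternatives were DESeq2 1.42.0, other scalings, filters and fold thresholds, thinning, 2-group fits, a replicate block, other lengths and leaving out each library.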

Additional observations from a re-analysis of the deposited data

How the results depend on the processing

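The precision of these values is limited by 3 cultures per group, and for LDHB, LDHD and SLC16A4 by counts of 14 or fewer per library. Over 16 or fewer alternatives per comparison, LDHA, PKM and SLC16A3 kept their direction and calls at 1% O2 and with 32-134D against vehicle at 1% O2. Scaling by total count moved the median of all genes to -0.21 on the log2 scale at 1% O2 and to 0.17 with 32-134D, and 34.5% and 72.0% of calls were then higher, against 49.0% and 54.2%. LDHA, PKM and SLC16A3 were then at 3.24, 1.22 and 1.70 at 1% O2. The replicate numbers did not pair the libraries (correlations of same-numbered libraries between -0.0322 and 0.00525), and a replicate block left 5, 4 and 1 members called in the comparisons at 1% O2, with 32-134D against vehicle at 1% O2 and against vehicle at 20% O2. With each library left out in turn, these counts were 5 to 5, 3 to 5 and 1 to 2, and those of the 5 lists were 29 to 30, 25 to 26 and 4 to 8. Against vehicle at 20% O2, PKLR became called without replicate 1 of 32-134D (log2 fold change -1.14, edgeR FDR 0.0377) and with no low-count filter (-0.81), which gave 2 members called, as did dropping the fold threshold, which added SLC16A3. The lists then had 15 calls with no fold threshold and 2 at a fold above 2, against 7, and 4 without replicate 3 of 32-134D. At a fold above 2 the lists had 17 calls with 32-134D against vehicle at 1% O2, against 26. From raw counts instead of counts per kilobase, the PKLR share changed by -2.28 points at 1% O2 and by -1.23 points with 32-134D against vehicle at 20% O2, and the SLC16A3 share by 16.6 points at 1% O2 and by -15.4 points with 32-134D against vehicle at 1% O2. By the longest transcript, LDHA over PKM was 0.433, 1.76 and 0.864 in vehicle at 20% O2, vehicle at 1% O2 and 32-134D. Left out in turn, libraries gave PKLR share differences of -6.17 to -5.61, 2.14 to 3.73 and -3.73 to -2.15 points in the 3 comparisons, and SLC16A3 share differences of 20.6 to 23.2, -21.8 to -19.2 and 1.09 to 1.97 points. Reversed signs were seen for values near 0, namely SLC16A1 with 32-134D against vehicle at 1% O2 (-0.17 to 0.16 with each library left out, the lowest without replicate 3 of 32-134D) and BSG with 32-134D against vehicle at 20% O2 (-0.022 by total count, -0.012 with at least 10 counts in every library, -0.026 after thinning, and -0.019 to 0.027 with each library left out, the lowest without replicate 3 of vehicle at 20% O2). The cause of these changes was not tested.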
